A study of Mus musculus with 12 samples.

Results

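The 10 genes described here encode the receptors, bridging proteins and engulfment proteins with which macrophages clear dying cells (efferocytosis): Mertk, Axl, Gas6, Pros1, Mfge8, Lrp1, Trem2, Tyrobp, Elmo1 and Dock1. They were chosen by name among the 24279 genes of the expression table, all 10 were found, and all 10 passed the filter on low values, which kept genes that reached 1 TPM in 3 or more libraries. TPM is the relative number of copies of a transcript, corrected for its length, out of a total of 1000000 that every library shares.

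The study profiled RNA of cultured mouse peritoneal macrophages in 12 libraries, 3 in each of 4 groups. The groups were wild-type (WT) cells given PBS, WT cells given oxidized low-density lipoprotein (oxLDL), Pim1-/- cells given PBS and Pim1-/- cells given oxLDL. The treatment was 20 µg/mL oxLDL for 8 h. Pim1 encodes a serine/threonine kinase, and oxLDL is the form of the cholesterol-carrying particle found in plaques, which scavenger receptors bring into macrophages. The labels give no age, sex or strain background, nor whether each library is 1 animal, so p-values measure the spread between these samples, which may be technical.

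Efferocytosis starts when a macrophage recognizes phosphatidylserine exposed on a dying cell. Some receptors bind the lipid themselves, whereas the TAM receptors, among them Axl and Mertk, and the integrins reach it through soluble bridging proteins such as Gas6, protein S and Mfge8. Signals from these receptors converge on Rac, which the Elmo1 and Dock1 complex activates to close the phagocytic cup. In atherosclerotic plaques macrophages have to clear lipid-laden dying cells, and the process is known to fail in advanced plaques.

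Pim1 was lower in the Pim1-/- libraries, which held 10.2 to 47.8 TPM against 56 to 365 TPM in the WT libraries. The groups did not overlap in either treatment. The exact two-sided permutation p was 0.1 in both treatments, and a design with 3 libraries on each side can give no smaller one. Macrophage markers summed to between 12097 and 24436 TPM in every library, with Lyz2 alone at 8983 TPM or more. Of these 8 markers oxLDL raised 2 and lowered 1 in WT, where 5.83% of all tested genes rose and 27% fell. Log2 changes were 3.89 for Cd14, 2.16 for Fcgr1 and -1.77 for Csf1r (limma adjusted p = 1.74e-05, 0.00222 and 0.0146). Csf1r was not called after median scaling. In Pim1-/- cells Cd14 (2.73) and Fcgr1 (2.37) rose and 0 fell, where 4.45% and 7.8% did. The part of macrophage state in the oxLDL changes below was not tested. Timd4, a receptor of resident peritoneal macrophages, was at 0 to 1.36 TPM, and Gata6, their defining transcription factor, ranged from 0.253 to 21.9 TPM. A list of 13 mesothelial cell and fibroblast markers summed to 322 to 716 TPM in WT PBS, 361 to 1077 TPM in WT oxLDL, 670.4 to 1947 TPM in Pim1-/- PBS and 498 to 1124 TPM in Pim1-/- oxLDL. Col1a1, a fibroblast collagen, gave 154 to 1229.5 TPM of it, while the mesothelial genes Wt1, Lrrn4 and Upk3b reached at most 19.3, 10.5 and 8.89 TPM, all in WT PBS. The mesothelial genes Msln and Krt19 reached at most 0.637 and 0.383 TPM, with Krt19 at 0 in all 3 WT oxLDL libraries. Of the 10 markers of this list that were tested, limma called Upk3b. It fell with oxLDL in WT (log2 change -1.42, limma adjusted p = 0.027) and with the knockout averaged over treatments (-1.11, limma adjusted p = 0.0398). Neither call held after median scaling. Mean levels of Col1a1, Col1a2 and Col3a1 went from 221, 136 and 35.7 TPM in WT PBS to 715, 357 and 97.2 TPM in Pim1-/- PBS, not called. Once a trend with transcript length and GC content was taken out, 2 markers were called as risen and 0 as fallen in each of the 2 contrasts. Fibroblasts are known to express several of the 10 genes, and the part of such cells in the results below was not tested. In bulk RNA, fewer cells of a type and less RNA per cell cannot be told apart.

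Several libraries stood apart. The WT PBS replicate 3 library listed 12867 genes at 0, against 8204 to 9964 in the others, and its T and NK cell markers summed to 465 TPM. The WT oxLDL replicate 2 library ranked its genes most like Pim1-/- oxLDL replicate 1 (Spearman rho 0.977) rather than like another WT oxLDL library. Pim1 stood at 56 TPM in the former, the lowest WT value, and at 47.8 TPM in the latter, the highest Pim1-/- value. Pim1-/- PBS replicate 2 was most like WT PBS replicate 1 (Spearman rho 0.916). The ribosomal and small-RNA entries Rn45s and Mir6236 together took 11.7% to 32.7% of the TPM of a library, most in WT oxLDL replicate 1 and next in Pim1-/- PBS replicate 3 (29.4%). Rescaling the libraries without both entries changed no call of the 10 genes. The typical gene was also lower in oxLDL: the median log2 change over the 12594 tested genes was -0.70 in WT and -0.50 in Pim1-/- cells. A change of one gene is therefore also given relative to the median gene, and after the libraries were scaled to a common median (median scaling). The level of a gene also moved with its transcript length, with slopes per doubling of length of 0.23 to 0.29 log2 units in WT PBS, -0.12 to 0.17 in WT oxLDL, -0.15 to 0.07 in Pim1-/- PBS and -0.30 to -0.13 in Pim1-/- oxLDL. The longest transcript is 14888 bases for Lrp1 and 597 bases for Tyrobp, the longest and the shortest of the 10 genes.

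The DNA upstream of 4 of the genes is shown because 3 of them, Axl, Gas6 and Lrp1, changed with oxLDL in both genotypes, while Mertk is the close relative of Axl, not called for oxLDL in either genotype. Each run is the 250 bases before the transcription start, 5′ to 3′ on the strand of the gene, from the RefSeq annotation of GRCm38.p6. Axl lies at chr7:25788734-25788983 (minus strand), Mertk at chr2:128698665-128698914 (plus strand), Gas6 at chr8:13494536-13494785 (minus strand) and Lrp1 at chr10:127621149-127621398 (minus strand). Capitals mark matches to the motifs searched.
Axl: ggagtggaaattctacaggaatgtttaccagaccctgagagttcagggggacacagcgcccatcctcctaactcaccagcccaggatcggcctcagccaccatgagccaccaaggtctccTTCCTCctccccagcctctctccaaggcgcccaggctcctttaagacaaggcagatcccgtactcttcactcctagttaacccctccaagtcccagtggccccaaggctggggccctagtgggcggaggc
Mertk: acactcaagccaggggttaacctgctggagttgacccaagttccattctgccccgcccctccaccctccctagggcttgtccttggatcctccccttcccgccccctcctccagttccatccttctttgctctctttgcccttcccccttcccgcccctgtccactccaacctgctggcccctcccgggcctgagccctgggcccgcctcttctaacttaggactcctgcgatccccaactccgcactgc
Gas6: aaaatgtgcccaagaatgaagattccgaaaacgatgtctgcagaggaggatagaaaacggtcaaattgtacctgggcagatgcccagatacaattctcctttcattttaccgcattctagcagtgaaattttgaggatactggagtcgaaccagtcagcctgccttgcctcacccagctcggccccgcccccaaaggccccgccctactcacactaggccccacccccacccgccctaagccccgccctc
Lrp1: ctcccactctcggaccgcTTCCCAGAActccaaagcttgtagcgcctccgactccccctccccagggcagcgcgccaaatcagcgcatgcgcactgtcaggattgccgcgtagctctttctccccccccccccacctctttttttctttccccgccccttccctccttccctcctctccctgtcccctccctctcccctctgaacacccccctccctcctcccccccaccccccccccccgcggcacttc

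Both strands were searched for 8 short motifs of factors active in macrophages. The Axl window held 1 match, the PU.1 core GAGGAA, here on the opposite strand as TTCCTC starting 130 bases before the start site. PU.1 is the lineage factor of macrophages, and 23.3% of 32851 promoters of the same length held this core. The Lrp1 window held 1 match to the GAS motif TTCNNNGAA, the letters bound by STAT proteins, 232 bases before the start site, as did 7.02% of promoters. None of the 8 motifs matched in the Mertk and Gas6 windows. The others were an ISRE-like motif of GAAA, any 2 bases and GAAA (in 2.98% of promoters), the NF-kB consensus (7.25%), the AP-1 motif TGANTCA (6.75%), the LXR core AGGTCA (14%), the CRE TGACGTCA (1.55%) and the E-box CACGTG (6.02%). With 1 match each, the windows of Axl and Lrp1 hold no overlap between motifs. A match is a description of the letters and not evidence of binding.

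Mfge8 had the highest mean level of the 10 genes in every group but Pim1-/- oxLDL, where Tyrobp was above it and the libraries of the pair overlapped. In WT PBS the mean levels ran from 6537 TPM for Mfge8 through 946 for Tyrobp, 596 for Trem2, 465 for Lrp1, 109 for Mertk, 61.3 for Gas6, 49.3 for Pros1, 38.3 for Elmo1 and 38.3 for Axl to 17.5 TPM for Dock1. Mfge8 did not overlap with Tyrobp there, nor Lrp1 with Mertk, nor Axl with Dock1, and every other pair of neighbours overlapped between libraries. In WT oxLDL the order was Mfge8, Tyrobp, Trem2, Axl, Lrp1, Mertk, Elmo1, Pros1, Gas6 and Dock1. Axl had moved from the ninth place to the fourth. The order from the first to the fourth place in Pim1-/- PBS was Mfge8, Tyrobp, Trem2 and Lrp1, and in Pim1-/- oxLDL it was Tyrobp, Mfge8, Trem2 and Axl. Axl held the seventh place in Pim1-/- PBS.

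**Figure D1:**
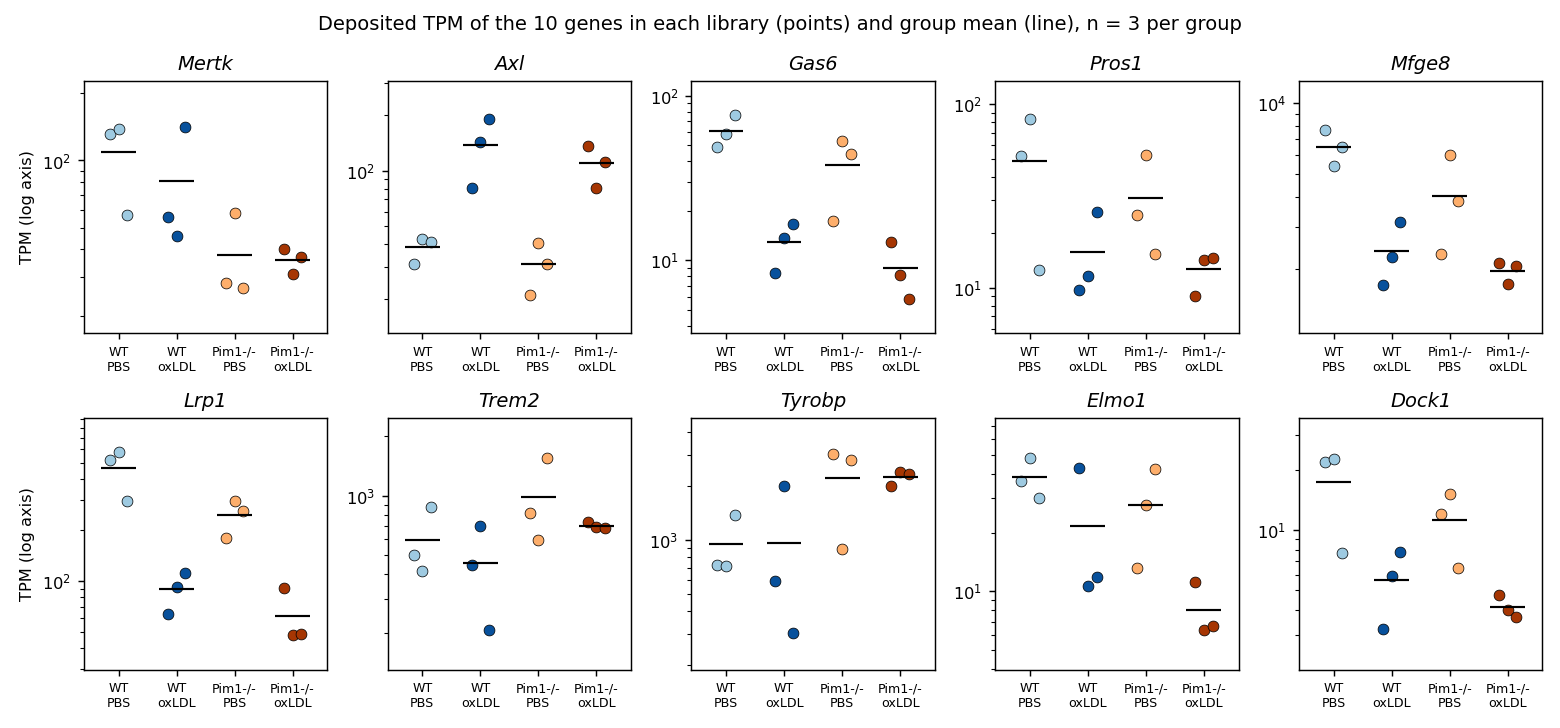
TPM of the 10 genes in each library (points, log axis) with the group mean (line), 3 libraries per group. The oxLDL libraries are above the PBS libraries for Axl and below them for Gas6, Mfge8 and Lrp1 in both genotypes, while Mertk, Trem2 and Tyrobp overlap between treatments.

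OxLDL raised 1 and lowered 4 of the 10 genes in WT cells, 5 called by limma at an adjusted p under 0.05, where 32.8% of all tested genes were called, 5.83% upward and 27% downward. Axl rose, and Lrp1, Gas6, Mfge8 and Dock1 fell. Among the Pim1-/- libraries 3 of the 10 were called, 1 up and 2 down, where 12.2% of all tested genes were called, 4.45% upward and 7.8% downward. These were again Axl, which rose, and Lrp1 and Gas6, which fell. The median log2 change of the 10 genes was -1.20 in WT and -1.01 in Pim1-/- cells, beside -0.70 and -0.50 for all tested genes. After median scaling the calls were 3 in WT (Axl up, Gas6 and Lrp1 down), where 20.4% of all genes were called. They were 2 in Pim1-/- cells (Axl up, Lrp1 down), where 11.3% were. The groups of libraries did not overlap for 1 higher and 3 lower genes in WT, as for 7.95% and 34.7% of all tested genes. With Pim1 deleted this held for 1 higher and 6 lower genes, as for 8.54% and 29.6% of all tested genes. Without the WT oxLDL replicate 2 library the WT count was also 3, with 1 up and 2 down, and without WT PBS replicate 3 it was 6, with 1 up and 5 down. The shares of all tested genes called in these fits are not given here, so the counts cannot be set against them.

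**Figure D2:**
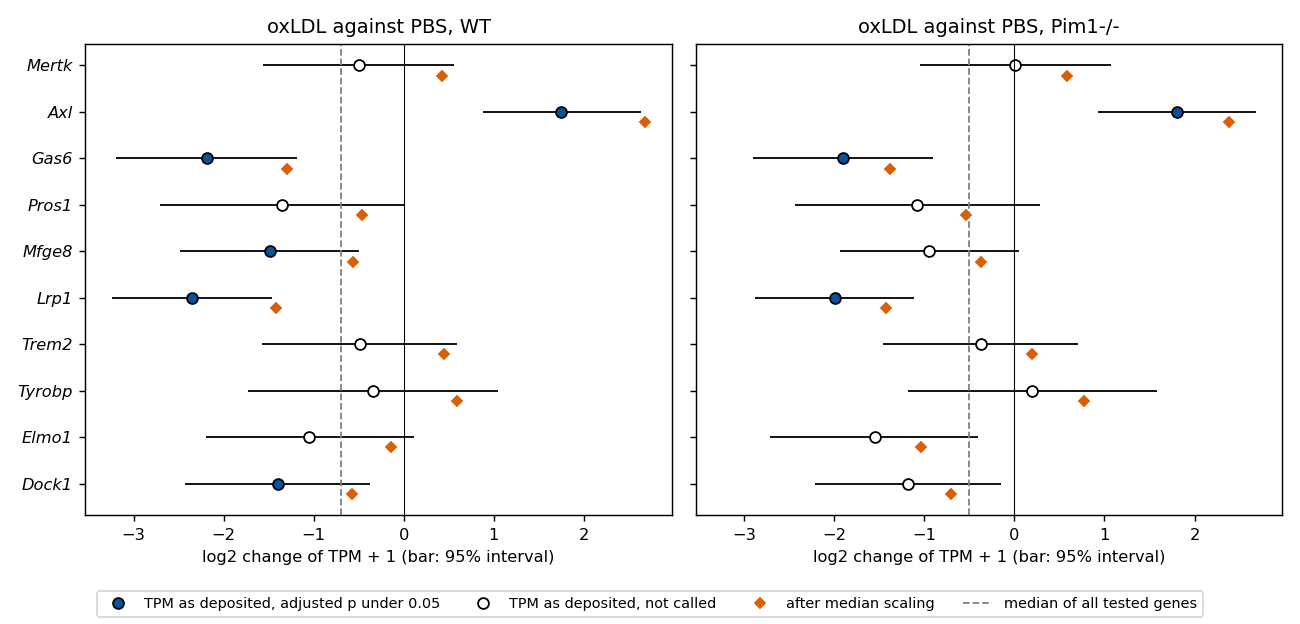
Log2 change of TPM + 1 with oxLDL against PBS for the 10 genes in each genotype (circles, filled where the limma adjusted p is under 0.05, with 95% intervals) and after median scaling (diamonds). The dashed line is the median of all tested genes on the deposited scale. Axl lies at 1.75 in WT and 1.81 in Pim1-/- cells, and Lrp1 at -2.35 and -1.99.

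Axl, the TAM receptor tyrosine kinase that binds Gas6 and is known to be induced in inflamed macrophages, was the only one of the 10 genes called as risen in either genotype. The gene lies on chromosome 7 (25757273 to 25788705, GRCm38, minus strand, GENCODE M21), and no other annotated gene overlaps it. In WT cells the PBS libraries held 31.3, 42.8 and 40.8 TPM of it, against 81, 143 and 192 TPM after oxLDL. With Pim1 deleted, PBS gave 21, 40.6 and 31.3 TPM, and oxLDL gave 137, 80.8 and 111 TPM. In both genotypes every oxLDL library was above every PBS library. The group means were 38.3 ± 6.14 and 138 ± 55.4 TPM in WT and 31 ± 9.83 and 109.6 ± 28.2 TPM in Pim1-/- cells (SD, n = 3 each). By expression rank within its library Axl moved from between 3344 and 4300 to between 665 and 1149 in WT, where 1 is the highest level. In Pim1-/- cells it moved from between 2978 and 3984 to between 781 and 1294. The log2 change was 1.75 (SE 0.41, limma adjusted p = 0.00598) in WT and 1.81 (SE 0.41, limma adjusted p = 0.0101) in Pim1-/- cells, a rise of 3.37-fold and 3.49-fold. Relative to the median gene the changes were 2.46 and 2.31. In WT cells Axl stayed called under all 24 alternatives, with changes of 1.48 to 2.68. In Pim1-/- cells it was not called without Pim1-/- oxLDL replicate 3 (log2 change 1.78, limma adjusted p = 0.0503) or without WT oxLDL 2 and Pim1-/- oxLDL 1 together (1.63, limma adjusted p = 0.0589), in a range of adjusted p over alternatives from 9.32e-05 to 0.0589.

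Mertk, the TAM receptor that mature tissue macrophages use for silent clearance of dying cells, showed no called response to oxLDL. The gene lies on chromosome 2 (128698956 to 128802894, GRCm38, plus strand), overlapped by the antisense gene Gm14011. The kit kept the strand, but whether the quantification used it is not given in the sources used here. Its level was 131, 139 and 57.1 TPM in WT PBS, against 55.5, 45.8 and 142 TPM in WT oxLDL, so the groups overlapped. Cells lacking Pim1 had 28.2, 57.9 and 26.9 TPM with PBS, against 40, 30.9 and 36.7 TPM in oxLDL. The WT libraries thus spread widely within each treatment, and the Pim1-/- libraries lay low in both. The oxLDL log2 change was -0.50 (SE 0.49, limma adjusted p = 0.454) in WT, and 0.01 (SE 0.49, limma adjusted p = 0.99) in Pim1-/- cells. Median scaling turned the first to 0.42 (limma adjusted p = 0.455) and moved the second to 0.58 (limma adjusted p = 0.407). On that scale the Pim1-/- oxLDL libraries, at 52.3 to 63.3, were all above the Pim1-/- PBS libraries, at 34.4 to 47.2 median-scaled TPM.

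Gas6, the secreted ligand of the TAM receptors that links Axl and Mertk to phosphatidylserine, fell in both genotypes. It lies on chromosome 8 (13465374 to 13494490, GRCm38, minus strand) and overlaps Tmem255b on the opposite strand. Its level was 48.5, 58.5 and 76.8 TPM in WT PBS, against 8.3, 13.7 and 16.5 TPM in WT oxLDL. The Pim1-/- values were 17.3, 52.7 and 44.1 TPM with PBS, against 12.9, 8.14 and 5.76 TPM in oxLDL. Every oxLDL library was below every PBS library of its genotype. The means were 61.3 ± 14.4 and 12.8 ± 4.18 TPM in WT and 38 ± 18.5 and 8.94 ± 3.65 TPM in Pim1-/- cells (SD, n = 3). The log2 changes were -2.19 (SE 0.47, limma adjusted p = 0.00357) in WT and -1.90 (SE 0.47, limma adjusted p = 0.0164) in Pim1-/- cells, or -1.49 and -1.39 relative to the median gene. Gas6 kept its call in WT under all 24 alternatives, at -2.39 to -1.30. Median scaling ended the Pim1-/- call (-1.38, limma adjusted p = 0.0514, over all alternatives 0.00395 to 0.0984). So did leaving out Pim1-/- PBS replicate 2 (-1.60), Pim1-/- oxLDL replicate 2 (-1.87) or Pim1-/- oxLDL replicate 3 (-1.65).

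Pros1 encodes protein S, the other TAM ligand, best known as a plasma anticoagulant, and it was not called for oxLDL. It lies on chromosome 16 (62854307 to 62929346, GRCm38, plus strand). Its level was 52, 83.5 and 12.5 TPM in WT PBS, against 9.74, 11.6 and 25.9 TPM in WT oxLDL. Without Pim1 the values were 24.9, 52.6 and 15.2 TPM with PBS, against 9.08, 14.2 and 14.5 TPM in oxLDL. The WT groups overlapped through WT PBS replicate 3 at 12.5 TPM, while the Pim1-/- oxLDL libraries were all below the Pim1-/- PBS libraries. The log2 change was -1.35 (SE 0.63, limma adjusted p = 0.114) in WT and -1.08 (SE 0.63, limma adjusted p = 0.284) in Pim1-/- cells. Without WT PBS replicate 3 the WT change was -2.12 and called (limma adjusted p = 0.00889, over all alternatives 0.00889 to 0.579).

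Mfge8, the milk fat globule protein that bridges phosphatidylserine to integrins, was among the highest transcripts of the libraries and fell with oxLDL in WT cells. It lies on chromosome 7 (79133768 to 79149060, GRCm38, minus strand). In WT cells its level was 7705, 5397 and 6509 TPM with PBS, against 1716, 2238 and 3149.6 TPM with oxLDL. In cells without Pim1 it was 2301, 5996 and 3863 TPM with PBS, against 2109, 1722 and 2055 TPM with oxLDL. The groups did not overlap in either genotype, although Pim1-/- PBS replicate 1 was close to the oxLDL libraries. Its rank in the library was 11 to 16 in WT PBS and 33 to 49 in WT oxLDL, and 17 to 35 and 46 to 62 in Pim1-/- cells. The log2 change was -1.49 (SE 0.46, limma adjusted p = 0.0245) in WT and -0.95 (SE 0.46, limma adjusted p = 0.201) in Pim1-/- cells. Relative to the median gene these were -0.79 and -0.44. The WT call ended under 9 of the 24 alternatives, among them median scaling (-0.56, limma adjusted p = 0.368, over all alternatives 0.0107 to 0.368) and leaving out WT PBS replicate 1, WT oxLDL replicate 1 or WT oxLDL replicate 2 (-1.37, -1.28 and -1.48).

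Lrp1, a large endocytic receptor that recognizes calreticulin on dying cells and also takes up lipoprotein remnants, showed the largest fall of the 10 genes in both genotypes. It lies on chromosome 10 (127538161 to 127621148, GRCm38, minus strand), overlapped by the antisense gene Gm16217. Its level was 520.3, 576 and 298 TPM in WT PBS, against 63.6, 91.4 and 112 TPM in WT oxLDL. The cells lacking Pim1 had 178, 298 and 259 TPM with PBS, against 90.9, 47.7 and 48.3 TPM in oxLDL. All oxLDL libraries of both genotypes lay below all PBS libraries. The means fell from 465 ± 147 to 89.1 ± 24.3 TPM in WT and from 245 ± 61 to 62.3 ± 24.8 TPM in Pim1-/- cells (SD, n = 3). The log2 change was -2.35 (SE 0.41, limma adjusted p = 0.00106) in WT and -1.99 (SE 0.41, limma adjusted p = 0.00601) in Pim1-/- cells, a level 5.11-fold and 3.98-fold lower. Both calls held under all 24 alternatives. The smallest changes, -1.03 in WT and -1.02 in Pim1-/- cells, came from removing the trend with length and GC content, where Gas6 fell further (-1.65 and -1.56), and median scaling gave -1.42 and -1.43.

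Trem2, a lipid-binding receptor of macrophages, and Tyrobp, the adaptor DAP12 through which it signals, were high in every group and not called for oxLDL. Trem2 lies on chromosome 17 (48346401 to 48354147, GRCm38, plus strand) and Tyrobp on chromosome 7 (30413760 to 30417585, GRCm38, plus strand). Trem2 stood at 499, 415 and 873 TPM in WT PBS, 444, 704 and 209 TPM in WT oxLDL, 819, 592 and 1552 TPM in Pim1-/- PBS and 731, 690.1 and 683 TPM in Pim1-/- oxLDL. Tyrobp stood at 730.2, 717 and 1389 TPM in WT PBS, 589, 1997 and 302 TPM in WT oxLDL, 3017, 891 and 2794 TPM in Pim1-/- PBS and 2015, 2405 and 2339 TPM in Pim1-/- oxLDL. The treatment groups of each genotype overlapped for both genes, and WT oxLDL replicate 2 was the highest WT library for Tyrobp. For oxLDL in WT the log2 changes were -0.49 (SE 0.51, limma adjusted p = 0.477) for Trem2 and -0.34 (SE 0.65, limma adjusted p = 0.709) for Tyrobp, which turned to 0.45 and 0.59 after median scaling. The Pim1-/- changes were -0.37 for Trem2, which turned to 0.20, and 0.20 for Tyrobp (limma adjusted p = 0.651 and 0.862).

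Elmo1 and Dock1, the adaptor and the exchange factor that together activate Rac, were the lowest of the signalling members. Elmo1 lies on chromosome 13 (20090596 to 20608353, GRCm38, plus strand) and Dock1 on chromosome 7 (134670654 to 135173639, GRCm38, plus strand), where it overlaps Fam196a. Dock1 was at 21.9, 22.8 and 7.68 TPM in WT PBS, against 3.21, 5.87 and 7.8 TPM in WT oxLDL. It was at 12, 15.1 and 6.44 TPM in Pim1-/- PBS, against 4.72, 4.01 and 3.67 TPM in Pim1-/- oxLDL. The WT groups overlapped, by WT PBS replicate 3, and the Pim1-/- groups did not. The log2 change of Dock1 was -1.40 (SE 0.48, limma adjusted p = 0.037) in WT and -1.18 (SE 0.48, limma adjusted p = 0.126) in Pim1-/- cells. The WT call ended under 13 of 24 alternatives: after median scaling the change was -0.57 (limma adjusted p = 0.285), and once the length and GC trend was taken out it was -0.25 (limma adjusted p = 0.561, over all alternatives 0.00513 to 0.561). Leaving out WT PBS replicate 1 or 2, WT oxLDL replicate 1 or 2, or Pim1-/- oxLDL replicate 2 or 3 also ended it, with changes from -1.46 to -1.11.

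Elmo1 stood at 36.6, 48.4 and 30 TPM in WT PBS, against 42.7, 10.7 and 11.8 TPM in WT oxLDL. It stood at 13.1, 27.6 and 42.3 TPM in Pim1-/- PBS, against 11.2, 6.35 and 6.66 TPM in Pim1-/- oxLDL. WT oxLDL replicate 1 was as high as the PBS libraries, and the Pim1-/- groups did not overlap. The log2 changes were -1.05 (SE 0.54, limma adjusted p = 0.147) in WT and -1.55 (SE 0.54, limma adjusted p = 0.0765) in Pim1-/- cells. Without WT oxLDL replicate 1 Elmo1 was called in both, at -1.66 (limma adjusted p = 0.0324, over all alternatives 0.0324 to 0.974) in WT and -1.55 (limma adjusted p = 0.0389, over all alternatives 0.0389 to 0.469) in Pim1-/- cells. Without Pim1-/- PBS replicate 1 the Pim1-/- change was -1.99 and called as well (limma adjusted p = 0.0396).

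No member showed a called difference of the oxLDL response between genotypes: limma called 0 of 10, where 0.00794% of all tested genes were called. At an unadjusted limma p under 0.05 there were also 0 of the 10, and the share of all tested genes at that threshold is not given here. The differences, Pim1-/- minus WT, ran from -0.51 for Elmo1 (limma adjusted p = 0.986) to 0.55 for Mfge8 on the log2 scale. For Axl the difference was 0.05 with a 95% interval of -1.18 to 1.29, and for Lrp1 it was 0.36 with an interval of -0.90 to 1.61. For Gas6 it was 0.30 with an interval of -1.12 to 1.71. Each of these intervals reaches past a difference of 1 log2 unit, so the responses of the genotypes are not shown to be alike.

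Between genotypes, Mertk had the lowest log2 change of the 10 genes in PBS and averaged over treatments, while in oxLDL that was Elmo1 (-1.08, limma adjusted p = 0.505). Averaged over treatments, the Mertk log2 change in Pim1-/- against WT cells was -1.24 (SE 0.35, limma adjusted p = 0.038), and it was the 1 of 10 genes called, where 11.1% of all tested genes were called. In PBS the change was -1.49 (SE 0.49, limma adjusted p = 0.0886) and in oxLDL -0.98 (SE 0.49, limma adjusted p = 0.511). In oxLDL all Pim1-/- libraries, at 30.9 to 40 TPM, were below all WT libraries, at 45.8 to 142 TPM, and in PBS Pim1-/- replicate 2 at 57.9 TPM was just above WT replicate 3 at 57.1 TPM. Taken within a treatment, limma called 0 of 10 genes in PBS, where 4.67% of all tested genes were called. It called 0 of 10 in oxLDL, where 0.00794% were called. At an unadjusted limma p under 0.05 there were 2 of the 10 in PBS and 1 in oxLDL. The share of all tested genes at that unadjusted threshold is not given here.

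The call of Mertk averaged over treatments ended under 14 of 23 alternatives. With median scaling the change was -0.90 (limma adjusted p = 0.0524), and once the length and GC trend was taken out it was -0.73 (limma adjusted p = 0.0667), over all alternatives 0.0155 to 0.105. It was lost without any 1 of 9 of the 12 libraries, at -1.32 to -0.99, and kept without WT PBS replicate 3 (-1.44), WT oxLDL replicate 2 (-1.39) or Pim1-/- PBS replicate 2. In PBS alone it was called without WT PBS replicate 3 (-1.90, limma adjusted p = 0.0398) or Pim1-/- PBS replicate 2 (-1.84, limma adjusted p = 0.0434). Where 8.21% of all tested genes fell in the same contrast, 0 of 8 macrophage markers rose and 2 fell. These were Adgre1, which encodes F4/80, with a log2 change of -1.58 (limma adjusted p = 0.0289), and Csf1r, the receptor for the macrophage growth factor, with -1.13 (limma adjusted p = 0.0492). The other 6 ran from -1.08 for Itgam to 1.08 for Cd68 (limma adjusted p = 0.0501), with Fcgr1 at -0.68, Lyz2 at 0.01, Aif1 at 0.87 and Cd14 at 0.91. After median scaling Csf1r was no longer called (limma adjusted p = 0.0747), Adgre1 was (-1.23), and Cd68 and Cd14 were called as risen (1.42 and 1.26). On that scale 4.65% of all tested genes rose and 4.03% fell. Once the length and GC trend was taken out, Adgre1 was called (-1.12, limma adjusted p = 0.0369) and Csf1r was not (-0.67, limma adjusted p = 0.113). Neither Cd68 nor Cd14 was called there (0.29 and 0.68, limma adjusted p = 0.378 and 0.0728). Of 6 tested markers of large peritoneal macrophages Gata6 was called, with a change of -1.95 (limma adjusted p = 0.0219, or 0.0588 after median scaling). The other 5 were not called, among them F10 (-0.80), Cd5l (-0.54), Prg4 (-0.28) and Icam2, which went the other way (0.65). The median change of the 6 was -0.41, beside -0.30 for all tested genes. The part of the macrophage content or state in the value of Mertk was not tested.

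Tyrobp went the other way. It averaged 2234 ± 1169 and 2253 ± 209 TPM in Pim1-/- PBS and oxLDL, against 946 ± 384 and 963 ± 907 TPM in WT (SD, n = 3). In oxLDL the Pim1-/- libraries, at 2015 to 2405 TPM, were all above the WT libraries, at 302 to 1997 TPM. Averaged over treatments the log2 change was 1.39 (SE 0.46, limma adjusted p = 0.0614), which was not called. It was called without WT oxLDL replicate 2 (1.77, limma adjusted p = 0.00976), without WT PBS replicate 3 (1.55, limma adjusted p = 0.0387), without Pim1-/- PBS replicate 2 (1.68, limma adjusted p = 0.0234), without WT oxLDL 2 and Pim1-/- oxLDL 1 together (1.81, limma adjusted p = 0.0201) and with a filter at 5 TPM (1.39, limma adjusted p = 0.0475). Once the length and GC trend was taken out it was 0.15 (limma adjusted p = 0.67), over all alternatives 0.00976 to 0.67. Trem2 had a change of 0.74 (SE 0.36, limma adjusted p = 0.167) averaged over treatments. The other 7 genes had changes from -0.83 for Elmo1 to -0.31 for Axl, none of them called.

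**Figure D3:**
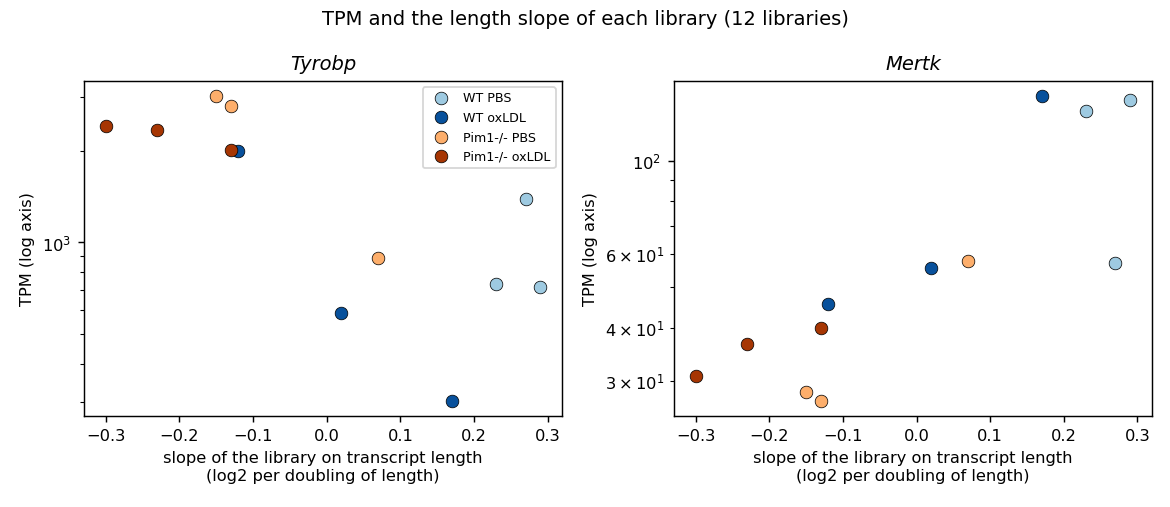
TPM of Tyrobp and of Mertk (log axes) against the slope of each library on transcript length, in log2 units per doubling of length, with 1 point per library and the groups by colour. The Pim1-/- oxLDL libraries, with slopes of -0.30 to -0.13, hold 2015 to 2405 TPM of Tyrobp and 30.9 to 40 TPM of Mertk, and the WT PBS libraries, with slopes of 0.23 to 0.29, hold 717 to 1389 TPM and 57.1 to 139 TPM.

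Ratios of partner genes within a library do not depend on the scaling of that library beyond the pseudocount of 1 TPM. A trend with transcript length does not cancel in a ratio whose partners differ in length, as Trem2 and Tyrobp do. The ratio of Axl to Mertk was 0.239, 0.309 and 0.715 in WT PBS, against 1.46, 3.12 and 1.35 in WT oxLDL. It was 0.743, 0.701 and 1.17 in Pim1-/- PBS, against 3.43, 2.62 and 3.02 in Pim1-/- oxLDL. Every oxLDL library was above every PBS library, in both genotypes. Averaged over genotype, the log2 ratio was higher by 2.02 in oxLDL (exact two-sided permutation p = 0.005, the smallest the design allows, adjusted p = 0.03 over the 6 ratio tests). Leaving out each library in turn gave 1.84 to 2.25, with an adjusted permutation p of 0.03 throughout. In Pim1-/- against WT cells it was higher by 0.93 (exact permutation p = 0.035, adjusted 0.09), and its adjusted permutation p passed 0.05 without WT PBS replicate 3 (1.16, adjusted 0.045) or WT oxLDL replicate 2 (1.12, adjusted 0.03).

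The ratio of Gas6 to Pros1 ranged from 0.396 to 6.15 and that of Trem2 to Tyrobp from 0.271 to 0.754. The first differed with oxLDL by -0.83 on the log2 scale (exact permutation p = 0.22, adjusted 0.264) and between genotypes by -0.30 (exact permutation p = 0.63, adjusted 0.63). WT PBS replicate 3 held the value of 6.15, and without it the oxLDL difference was -0.36. The log2 ratio of Trem2 to Tyrobp differed with oxLDL by -0.36 (exact permutation p = 0.205, adjusted 0.264) and between genotypes by -0.65 (exact permutation p = 0.045, adjusted 0.09). The genotype difference passed 0.05 after adjustment without WT oxLDL replicate 2 (-0.82, adjusted permutation p = 0.04) or without Pim1-/- PBS replicate 2 (-0.78, adjusted permutation p = 0.03). The longest transcript has 4784 bases for Trem2 and 597 for Tyrobp. Averaged over treatments, their knockout changes were 0.74 and 1.39 as deposited. Once the length and GC trend was taken out they were 1.03 and 0.15, so the order of the 2 genes turned around.

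**Figure D4:**
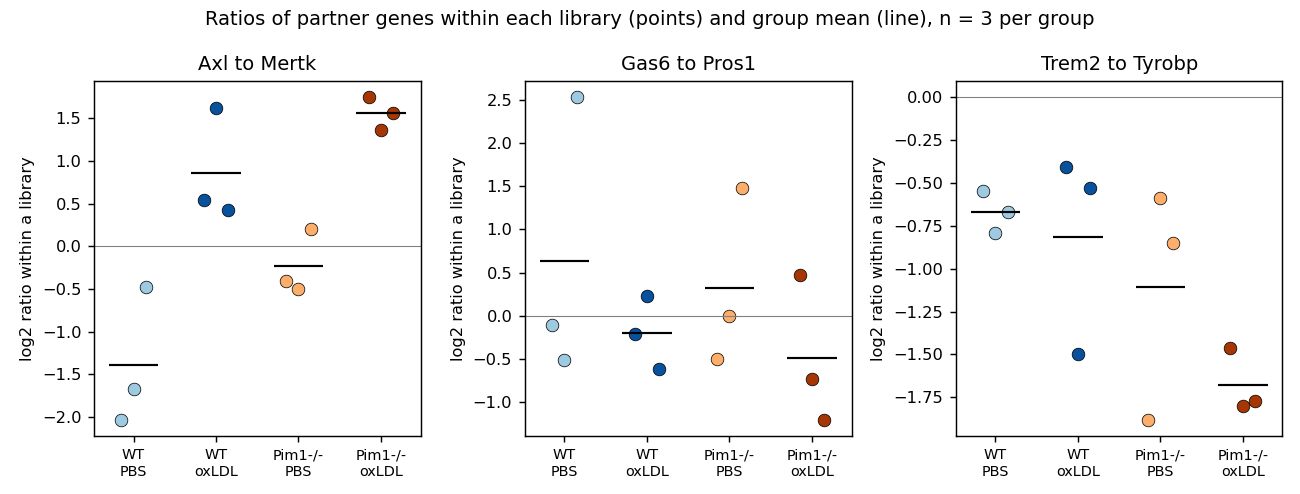
Log2 ratios within each library (points) and group means (lines) for Axl to Mertk, Gas6 to Pros1 and Trem2 to Tyrobp. For Axl to Mertk the oxLDL libraries lie above the PBS libraries, with means of 0.86 against -1.39 in WT and 1.56 against -0.23 in Pim1-/- cells.

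Across the 12 libraries, after median scaling, the log2 levels of Trem2 and Tyrobp rose and fell together most closely of all pairs among the 10 genes (Pearson r = 0.938). Gas6 and Lrp1 followed at 0.875, and Axl and Lrp1 ran opposite to each other at -0.871. Mertk ran opposite to Trem2 and Tyrobp, at -0.746 and -0.731. Without the scaling Gas6 and Lrp1 were the closest pair (0.944), and Trem2 and Tyrobp stood at 0.872. These values describe the same 12 libraries as the comparisons above and so hold the differences between treatments and between genotypes. They also hold the trend with transcript length, which median scaling does not remove. Among tested genes with a mean of at least 5 TPM, Nfkbie (0.993), Olfr1033 (0.992) and Creb5 (0.992) were most like Axl. Adgre1 (0.958), Atp6v0a2 (0.939) and Sgk3 (0.938) were most like Mertk. For Gas6 they were Txnrd3 (0.976), Adamts10 (0.961) and Emc1 (0.959), and for Lrp1 Plekhm1 (0.983), Cds2 (0.976) and Tmem164 (0.974). For Mfge8 they were Pnpla2 (0.98), Ilvbl (0.954) and Aldh16a1 (0.94), and for Dock1 Zfp369 (0.971), Kidins220 (0.964) and Kifap3 (0.963).

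Of 76 other genes of apoptotic cell clearance, listed by function, 75 were in the table and 67 were tested. In WT cells oxLDL raised 6 and lowered 25 of the 67, where 5.83% of all tested genes rose and 27% fell, and in Pim1-/- cells it raised 3 and lowered 16, where 4.45% rose and 7.8% fell. After median scaling the counts were 11 up and 15 down in WT, where 12.2% of all tested genes rose and 8.18% fell. They were 6 up and 12 down in Pim1-/- cells, where 6.91% rose and 4.39% fell. The median log2 changes were -0.88 and -0.60, beside -0.70 and -0.50 for all tested genes. Averaged over treatments, 0 rose and 12 fell in Pim1-/- against WT cells, where 8.21% of all tested genes fell. After median scaling 1 rose and 6 fell, where 4.65% rose and 4.03% fell. In PBS alone 0 rose and 5 fell with the knockout, where 4.06% of all tested genes fell: Lamp1 (-4.20), Rac1 (-2.95), Rab5a (-2.52), Npc1 (-1.77) and Dock5 (-1.58). None of these 5 was called after median scaling, where Lamp1, Rac1, Npc1 and Dock5 stood at -3.67, -2.43, -1.25 and -1.12 (limma adjusted p = 0.0605, 0.0856, 0.0893 and 0.113). Averaged over treatments Lamp1 was called as deposited (-3.17, limma adjusted p = 0.00463) and after median scaling (-2.83, limma adjusted p = 0.0298). For the difference of the oxLDL responses limma called 0 of the 67, as it did for the knockout in oxLDL.

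The counts of each functional group below stand beside the same shares of all tested genes, 5.83% up and 27% down in WT and 4.45% up and 7.8% down in Pim1-/- cells. After median scaling those shares were 12.2% up and 8.18% down in WT and 6.91% up and 4.39% down in Pim1-/- cells. Of 11 tested receptors outside the 10 genes, 2 rose and 6 fell in WT, and 2 rose and 5 fell in Pim1-/- cells. Median scaling gave 2 up and 5 down in WT and 2 up and 4 down in Pim1-/- cells. Olr1, the lectin-like receptor for oxLDL, rose by 2.49 in WT and 3.23 in Pim1-/- cells on the log2 scale (limma adjusted p = 0.00395 and 0.00124), from 6.22 ± 2.28 to 45.6 ± 35 TPM in WT. Scarf1, a scavenger receptor for C1q-coated dying cells, rose by 1.38 and 1.50 (limma adjusted p = 0.0319 and 0.0445). Of 24 alternatives its WT call ended under 6 and its Pim1-/- call under 12, with adjusted p up to 0.106 and 0.181, and 4 and 8 of these left out 1 library. Cd300lb, an activating receptor of myeloid cells, had a log2 change of -5.01 in WT and -4.54 in Pim1-/- cells (limma adjusted p = 8.2e-06 and 2.7e-05), from 518 ± 48.1 to 17 ± 10.7 TPM in WT. Havcr2, the phosphatidylserine receptor Tim-3, changed by -3.87 and -3.18, and Itgb3, a subunit of the integrin reached by Mfge8, by -2.57 and -3.09. All 3 of these falls were called in both genotypes. Tyro3, the TAM receptor not among the 10 genes, was at 0 to 1.14 TPM and was not tested.

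Among 12 other bridging, eat-me and find-me proteins, 1 rose and 2 fell in WT, and 0 rose and 2 fell in Pim1-/- cells. Median scaling gave 2 up and 2 down in WT and 0 up and 2 down in Pim1-/- cells. Thbs1, thrombospondin-1, rose by 1.55 in WT (limma adjusted p = 0.014) and had a change of 0.14 in Pim1-/- cells (limma adjusted p = 0.853). The difference between those responses was -1.41 and not called (limma adjusted p = 0.986). The find-me receptors Cx3cr1 and S1pr1 fell in both, Cx3cr1 from 13.9 ± 3.91 to 0.253 ± 0.0291 TPM in WT.

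Of 19 engulfment signalling genes 1 rose and 7 fell in WT, and 0 rose and 4 fell in Pim1-/- cells. Median scaling gave 3 up and 3 down in WT and 1 up and 3 down in Pim1-/- cells. Rhog, the GTPase upstream of Elmo1, rose by 1.28 in WT (limma adjusted p = 0.0136) and had a change of 0.97 in Pim1-/- cells (limma adjusted p = 0.089). Inpp5d, the lipid phosphatase SHIP1, fell with a log2 change of -2.77 in WT and -2.46 in Pim1-/- cells. Rac1 fell from 275 ± 91.4 to 70.9 ± 79.8 TPM in WT (log2 change -2.50, limma adjusted p = 0.00765), and had a change of -0.25 in Pim1-/- cells, where it stood at 34.1 ± 8.84 TPM in PBS. Of 7 do-not-eat-me and shedding genes, Pilra, an inhibitory receptor, rose by 3.03 and 2.51, while Sirpa, the receptor for CD47, and Adam10, a sheddase, were called as fallen in both genotypes.

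In the list of 18 genes for efferosome maturation and sterol handling, 1 rose and 8 fell in WT, and 0 rose and 3 fell in Pim1-/- cells. Median scaling gave 3 up and 4 down in WT and 1 up and 3 down in Pim1-/- cells. Pparg, a lipid-sensing nuclear receptor, fell in both, with log2 changes of -4.30 and -3.74 (limma adjusted p = 1.74e-05 and 8.67e-05). Npc1, which exports cholesterol from lysosomes, changed by -3.07 and -1.99, called in both. Nr1h3, the nuclear receptor LXRα, rose by 1.67 in WT (limma adjusted p = 0.0226) and had a change of 0.62 in Pim1-/- cells (limma adjusted p = 0.443). Lamp1, a lysosomal membrane protein, fell in WT with a log2 change of -2.95 (limma adjusted p = 0.00258), and had a change of -0.90 in Pim1-/- cells, in which it was at 205 ± 97.3 TPM in PBS against 3455 ± 307 TPM in WT. After median scaling the calls of Rac1 and Sirpa in WT ended (-1.57 and -0.67), as did those of Sirpa, Adam10 and Dock5 in Pim1-/- cells. Leaving out 1 library ended the Pim1-/- calls of Sirpa and Dock5 in 8 of 12 cases each, that of Adam10 in 5 and that of Npc1 in 3. The adjusted p of Npc1 in Pim1-/- cells reached 0.0675 over the alternatives. In WT the calls of Sirpa ended in 3 of 12 cases, those of Nr1h3 and Rhog in 2 each and that of Thbs1 in 1.

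**Figure D5:**
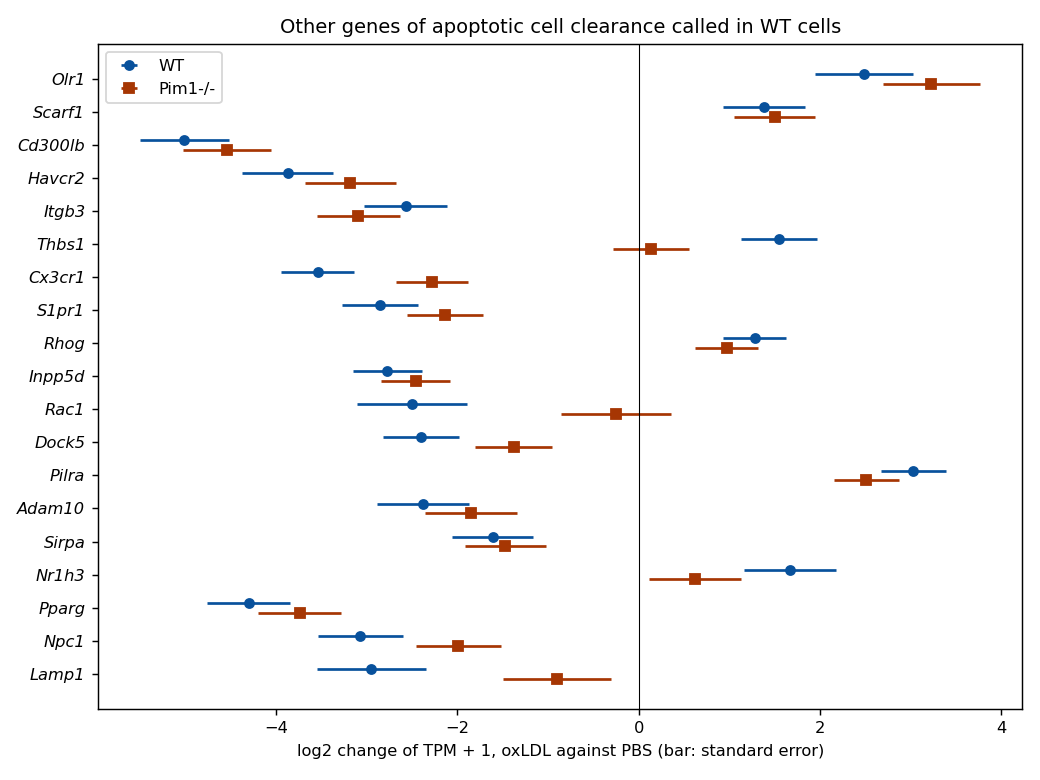
Log2 change of TPM + 1 with oxLDL against PBS in WT and Pim1-/- cells for the named other genes of apoptotic cell clearance, all called in WT, with standard errors. Olr1 and Pilra lie to the right in both genotypes, and Cd300lb and Pparg to the left.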

How the data were processed

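TPM values for 24279 genes in 12 libraries were deposited by the authors in 1 table. The authors used Salmon, DESeq2 and the mm10 build, per the submitters' processing notes, which give no versions. What each tool was used for, and with which annotation, is not given in the sources used here. Depth is unknown because TPM does not hold it, and neither a count model nor counting intervals were used. The libraries were made with a stranded poly(A) kit, per the labels' protocols.

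Values were analysed as log2(TPM + 1), which understates the change of low genes. The 12594 genes that reached 1 TPM in 3 or more libraries were fitted with limma 3.58.1 (R 4.3.3, empirical Bayes with an intensity trend) as 4 group means over 12 libraries, with 8 residual degrees of freedom. Calls were made at an adjusted p under 0.05 (Benjamini-Hochberg, over all tested genes). The 6 contrasts were oxLDL in each genotype, the knockout in each treatment, the knockout averaged over treatments and the difference of the oxLDL responses. Ratios of partner genes were compared by exact two-sided permutation within genotype or treatment (400 arrangements), adjusted over 6 tests. The fit was tested on simulated data.

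The alternatives, named with their effect in the closing section, were other pseudocounts, filters and normalizations, no intensity trend, only the compared groups, a replicate block, leaving out each library and leaving out the most similar WT and Pim1-/- oxLDL libraries together. Removing a trend with transcript length and GC content, as medians over 100 bins in each library, was chosen after seeing the data. Gene positions and lengths came from GENCODE M21 (GRCm38), which held 95.7% of the table's names. The RefSeq promoter table held 9 of the 10 genes.

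The 10 genes, the lists of other genes and the markers were chosen with earlier results of these data known. Other genes named are, per list, the called genes with the largest oxLDL change in WT, at most 3 in each direction, and per called member the 3 genes most correlated with it. Marker genes and some listed genes not called were named beside the results they touch.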

Additional observations from a re-analysis of the deposited data

How the results depend on the processing

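Of 1420 values for the 10 genes under the alternatives, 1364 kept their side of the threshold, 42 lost a call and 14 gained one. Most of these values were not called in the main analysis, and only a called one could lose its call. No called value reversed. Among the values that stayed uncalled, 67 changed sign. Of 912 values for the other named genes, 74 lost a call and 2 gained one. Pseudocounts of 0.1 and 0.5, no intensity trend and rescaling without Rn45s and Mir6236 changed no call of either set. The number of the 10 genes called for oxLDL in WT, 5 in the main analysis, was 3 without a filter on low values, with median scaling, with only the compared groups, with the replicate block, without WT oxLDL 2 and Pim1-/- oxLDL 1, and once the length and GC trend was taken out. The count for the knockout averaged over treatments, 1 in the main analysis, was 0 without a filter, with median scaling, with quantile normalization, with the replicate block and once the length and GC trend was taken out. It was 2 with a filter at 5 TPM and without WT oxLDL 2 and Pim1-/- oxLDL 1. Except for median scaling, the shares of all tested genes called under these alternatives are not given here. Apart from the fewer samples of the fits that leave libraries out, the cause of these shifts was not tested.

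Leaving out each library in turn gave 3 to 6 genes called for oxLDL in WT and 1 to 4 in Pim1-/- cells (1 without Pim1-/- oxLDL replicate 3). It gave 0 to 1 for the knockout in PBS (Mertk, without WT PBS replicate 3 or Pim1-/- PBS replicate 2) and 0 to 1 in oxLDL (Tyrobp at 2.41, without WT oxLDL replicate 2). For the knockout averaged over treatments it gave 0 to 2 and for the difference of the responses 0 throughout. Shares of all tested genes called without each library are not given here. The log2 ratio of Axl to Mertk differed by 1.84 to 2.25 with oxLDL and by 0.77 to 1.16 with the knockout. For Gas6 to Pros1 the ranges were -1.11 to -0.36 and -0.59 to 0.17, and for Trem2 to Tyrobp -0.55 to -0.19 and -0.82 to -0.46. For Pim1 they were -2.63 to -1.89 in PBS and -3.28 to -1.94 in oxLDL.

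The replicate numbers did not pair the libraries. The deviations from the group means of the 18 pairs of same-numbered libraries correlated at -0.52 to 0.17 (median -0.05), 5 of them over 0.1, and 1 of 12 libraries correlated best with its own number. With the replicate block the Axl to Mertk difference with oxLDL was again 2.02, with an adjusted permutation p of 0.188; its unadjusted p of 0.0312 is the smallest that the 64 arrangements of the block can give. Depth is not recorded in TPM, so the precision of low values such as those of Dock1 is unknown.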
